A study of Mus musculus with 11 samples.

Results

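Liver transcriptomes of FSH-treated and saline-treated mice were examined for the 9 genes that encode enzymes of cholesterol synthesis after squalene, from the closure of lanosterol to the last reductions: Lss, Cyp51, Tm7sf2, Msmo1, Nsdhl, Hsd17b7, Ebp, Sc5d and Dhcr7. The genes were taken by name, and all 9 were found among the 36788 gene identifiers of the deposited table. All animals were female wild-type C57BL/6 mice older than 12 weeks (the study's methods describe a mixed background for its strains), all had been ovariectomized (OVX), and all were on a high-fat diet (HFD). In 5 of them FSH was injected intraperitoneally every day at 30 IU/kg, and the 6 controls received saline. Both groups therefore lacked ovarian hormones and no group with ovaries or on normal chow was compared, and RNA came from whole liver, so that fewer cells of a type and less RNA per cell cannot be told apart. The labels number the FSH mice 1, 2, 3, 4 and 6 and the saline mice 1 to 6. The table holds CPM, the reads counted on a gene scaled to a library total of 1000000. Between 10801891 and 19909327 reads were counted per library, and each of the 9 genes had between 292 and 24213 reads in each library, so that counting error was small beside the spread between mice.

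Cholesterol is built in the liver from acetyl-CoA through mevalonate and squalene. Lanosterol, the first sterol, is then trimmed of methyl groups and its double bonds are moved and reduced by enzymes of the endoplasmic reticulum. Genes of both stretches are classical targets of the transcription factor SREBP-2, which is kept in the endoplasmic reticulum by INSIG proteins when sterols are abundant and moves to the nucleus when they are scarce.

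The 250 bases before the start sites of the 9 genes were read from RefSeq promoters of GRCm38.p6 (11 promoters, 3 of them for Dhcr7) and searched on both strands for motifs known in sterol-regulated promoters. Neither the sterol regulatory element SRE-1 nor CACCCCAC, the stretch that lies within it, was found in any of the 11, and they were present in 0.0731% and 2.58% of all 32851 promoters. CCAAT, the box bound by NF-Y, a factor that acts together with SREBP on many promoters, was found in at least 1 promoter of each of the 9 genes. It was in 9 of the 11 promoters and in 33.8% of all promoters. GGGCGG, the Sp1 box, was likewise found for all 9 genes, in 10 of the 11 promoters and in 32.7% of all promoters. CACGTG, an E-box that both SREBP and clock proteins can bind, was found for Hsd17b7, Sc5d and Dhcr7. It was in 3 of the 11 promoters and in 6.02% of all promoters. Among the 12503 promoters of genes expressed in these livers, the shares were 35.1% for CCAAT, 55.9% for GGGCGG and 8.26% for CACGTG. No matches overlap in the sequences printed here. Shown are the upstream sequences of Lss, which had the largest fold change of the 9, of Sc5d, which holds an E-box 98 bases before the start, and of Ebp, which had the smallest fold change, with the motifs on either strand in capitals. They lie at chr10:76531355-76531587 on the plus strand, at chr9:42264301-42264550 on the minus strand and at chrX:8193513-8193762 on the minus strand, and bases inside the annotated gene were left out.
Lss: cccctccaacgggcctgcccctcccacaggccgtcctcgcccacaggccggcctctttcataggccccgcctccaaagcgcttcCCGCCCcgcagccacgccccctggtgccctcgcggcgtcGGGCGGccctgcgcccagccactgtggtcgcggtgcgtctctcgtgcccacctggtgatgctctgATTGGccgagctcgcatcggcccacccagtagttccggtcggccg
Sc5d: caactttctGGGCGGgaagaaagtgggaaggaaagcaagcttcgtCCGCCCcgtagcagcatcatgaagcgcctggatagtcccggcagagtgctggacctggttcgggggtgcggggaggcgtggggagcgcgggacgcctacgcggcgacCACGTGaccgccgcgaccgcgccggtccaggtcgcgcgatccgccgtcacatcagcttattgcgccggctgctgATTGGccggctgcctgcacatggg
Ebp: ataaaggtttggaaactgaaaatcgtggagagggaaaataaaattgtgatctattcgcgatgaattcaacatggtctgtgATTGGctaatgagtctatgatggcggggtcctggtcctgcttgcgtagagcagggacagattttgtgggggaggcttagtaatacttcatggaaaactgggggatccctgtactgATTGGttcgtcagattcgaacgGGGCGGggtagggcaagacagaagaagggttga
A match is a description of the letters and does not show binding. The Ebp sequence held 2 NF-Y boxes and 1 Sp1 box, and Lss held 1 NF-Y box and 2 Sp1 boxes.

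All 9 transcripts rose with FSH. In limma's test on log2(CPM + 0.5), 9 of 9 had an adjusted p under 0.05 with higher levels in the FSH group, and 6 of 9 were also changed by more than 2-fold, the pair of thresholds used by the study. Over all 12733 genes tested, 10.6% had an adjusted p under 0.05 (6.19% higher and 4.41% lower with FSH), while 1.83% passed both thresholds (0.887% higher and 0.942% lower). The median log2 fold change of the 9 was 1.17, against 0.02 over all genes tested. The 6 genes past both thresholds were Lss, Cyp51, Msmo1, Nsdhl, Sc5d and Dhcr7, and the 3 others were Hsd17b7, Tm7sf2 and Ebp. For 5 of the 9 genes (Lss, Tm7sf2, Ebp, Sc5d and Dhcr7) each FSH liver lay above each saline liver, which was the case for 3.95% of all genes tested. Groups without overlap in either direction were found for 6.67% of genes, 2.72% with the FSH livers lower. The exact two-sided permutation test over the 462 splits into 5 and 6 mice gave these 5 genes p = 0.00216, the smallest it can give, and the other 4 genes gave p-values up to 0.0216. After adjustment over all genes these exact values were 0.0506 to 0.135 for the 9 genes, and 0 of 12733 genes were under 0.05 (3049 were under it without adjustment, and limma called 1350 with adjustment).

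**Figure D1:**
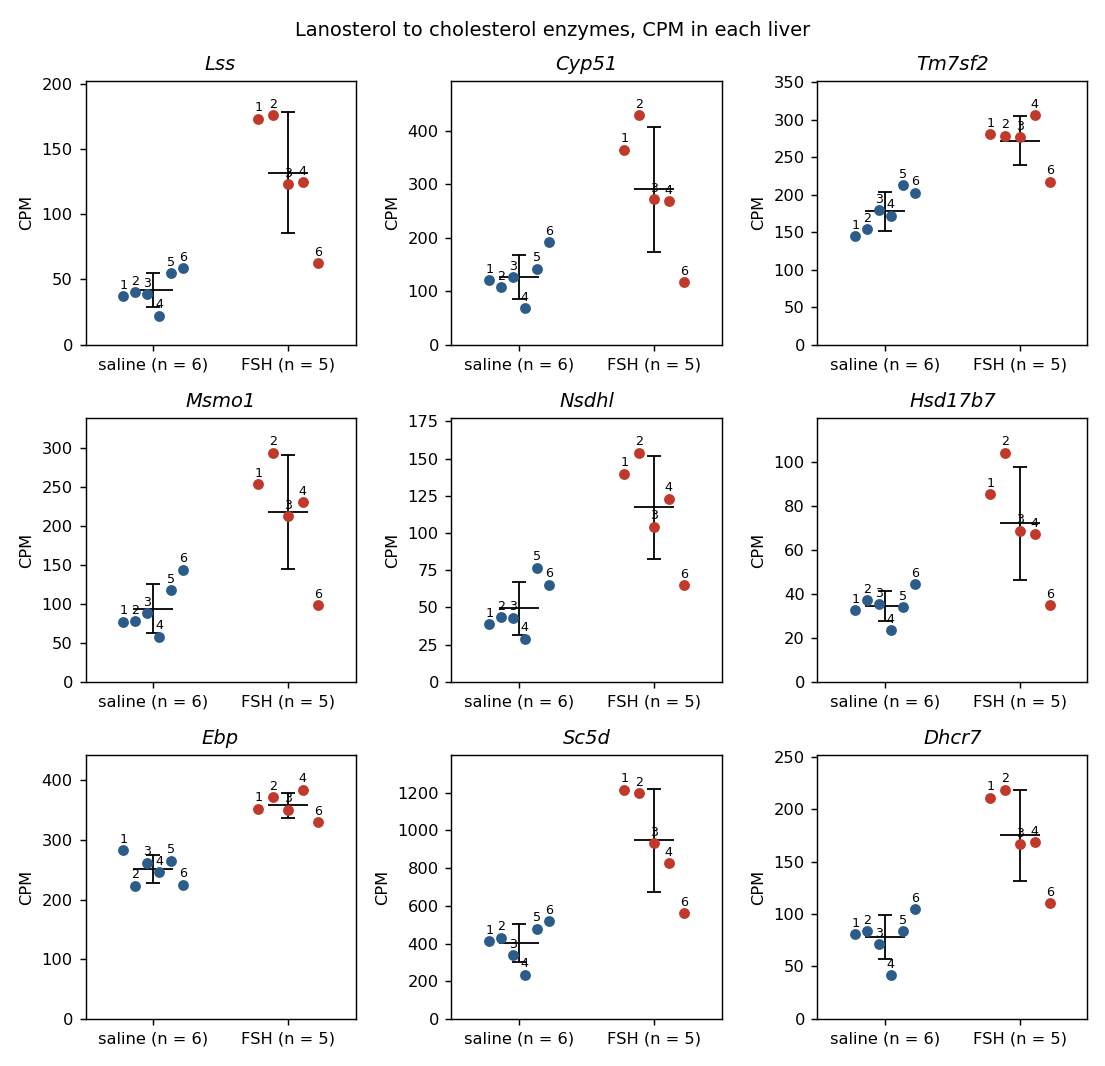
CPM of each of the 9 enzyme genes in every liver (y axis, linear from 0), with saline mice in blue and FSH mice in red and the mouse number beside each point. Black bars show the mean and SD of each group (6 saline and 5 FSH mice). FSH mouse 6 is the lowest point of the FSH group in all 9 panels, and the groups are separate for Lss, Tm7sf2, Ebp, Sc5d and Dhcr7.

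Lss encodes lanosterol synthase, which folds the squalene epoxide into lanosterol. The gene is found at 76531588 to 76557138 on chromosome 10 (GRCm38, as for all positions here), together with an antisense gene, 4930483K19Rik. The FSH livers had 173, 176, 123, 124 and 62.6 CPM of Lss (mice 1, 2, 3, 4 and 6), and the saline livers 37.4, 40.0, 38.7, 22.2, 54.9 and 58.6 CPM (mice 1 to 6). The highest saline liver stayed just below the lowest FSH liver. The rise was 1.62 on the log2 scale (SE 0.26, 95% interval 1.05 to 2.18, adjusted p = 0.00146 in limma), which ranked 28 from the top among 12733 genes and was the largest of the 9 enzymes.

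Cyp51 encodes the cytochrome P450 that takes the first methyl group off lanosterol, and it lies on chromosome 5 from 4081145 to 4104746, overlapping Akap9 on the other strand. Cyp51 was measured at 365, 429, 273, 268 and 118 CPM in the FSH livers and at 120.3, 108, 126, 68.0, 142 and 192 CPM in the saline livers. FSH mouse 6 lay among the saline mice here, below 4 of them. The rise was 1.14 on the log2 scale (SE 0.29, adjusted p = 0.0219 in limma), the weakest evidence among the 9 enzymes. Cyp51 did not pass both thresholds without FSH mouse 1 (1.03, adjusted p = 0.0671), 2 (0.97, adjusted p = 0.0548) or 3 (1.13, adjusted p = 0.0505), or without saline mouse 4 (0.98, adjusted p = 0.0407).

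Tm7sf2 encodes a sterol reductase of the next step, and lies on chromosome 19 from 6062821 to 6068373, overlapping Vps51 on the same strand. Tm7sf2 had 281, 279, 276, 306 and 217 CPM with FSH and 145, 154, 180.0, 172, 213 and 203 CPM with saline. The groups were close but separate, and the rise was 0.62 on the log2 scale (SE 0.11, 95% interval 0.37 to 0.86, adjusted p = 0.00314 in limma). The interval lies under 1, the 2-fold threshold. The overlapping gene Vps51 averaged 19.6 ± 2.37 CPM in the 5 FSH livers and 18.6 ± 1.13 CPM in the 6 saline livers (± SD), well below Tm7sf2.

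The removal of the remaining methyl groups takes a demethylation complex, whose oxidase is encoded by Msmo1 (chromosome 8, 64718139 to 64733792), whose dehydrogenase by Nsdhl (chromosome X, 72918557 to 72958514) and whose ketoreductase by Hsd17b7 (chromosome 1, 169949535 to 169969241). Msmo1 had 253, 294, 212, 229.9 and 98.3 CPM in the FSH livers and 77.1, 77.3, 88.1, 57.9, 117 and 144 CPM in the saline livers, a rise by 1.19 on the log2 scale (SE 0.26, adjusted p = 0.00944 in limma). Nsdhl had 139.9, 154, 104, 123 and 64.8 CPM with FSH and 38.9, 43.5, 43.2, 29.1, 76.7 and 65.4 CPM with saline, a rise by 1.25 on the log2 scale (SE 0.24, adjusted p = 0.00442 in limma). For both genes FSH mouse 6 lay below saline mice 5 and 6, and the other 4 FSH livers lay above all saline livers. Hsd17b7 had 85.4, 104, 68.8, 67.1 and 34.7 CPM with FSH and 32.5, 37.2, 35.2, 23.5, 34.0 and 44.5 CPM with saline. FSH mouse 6 was thus in the middle of the saline range, and the log2 fold change of 0.99 (standard error 0.22, adjusted p = 0.0113 in limma) fell just short of the 2-fold threshold. Without FSH mouse 6 it was 1.23 (adjusted p = 0.000366), and it also passed without saline mouse 2 (1.01) or 6 (1.07).

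Ebp encodes the isomerase that shifts the double bond within the sterol ring, and lies on chromosome X from 8185329 to 8193512. The FSH livers had 352, 372, 351, 384 and 329 CPM of Ebp and the saline livers 283, 223, 262, 245, 265 and 225 CPM. Ebp thus varied little between mice of a group, with a coefficient of variation of 5.91% with FSH and 9.44% with saline, while the other 8 enzymes had 12.0% to 40.5% with FSH and 14.9% to 36.2% with saline. Its log2 fold change was the smallest of the 9, 0.52, but also the most precise (standard error 0.08, 95% interval 0.34 to 0.69, adjusted p = 0.00132 in limma).

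Sc5d, which encodes the desaturase that precedes the last reduction, lies on chromosome 9 from 42251595 to 42264256. It had 1216, 1198, 933, 828 and 559.7 CPM in the FSH livers and 413, 431, 339.5, 235, 479 and 517 CPM in the saline livers. Sc5d thus was separate between the groups by a narrow margin, with a rise by 1.22 on the log2 scale (SE 0.22, adjusted p = 0.0023 in limma). Dhcr7, which encodes the reductase that makes cholesterol from its direct precursor, lies on chromosome 7 from 143823145 to 143848410. It had 211, 219, 166, 169 and 110.2 CPM with FSH and 80.9, 84.1, 71.7, 41.6, 84.1 and 105 CPM with saline, and again no FSH liver was as low as a saline liver. The rise was 1.17 on the log2 scale (SE 0.21, adjusted p = 0.00259 in limma).

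**Figure D2:**
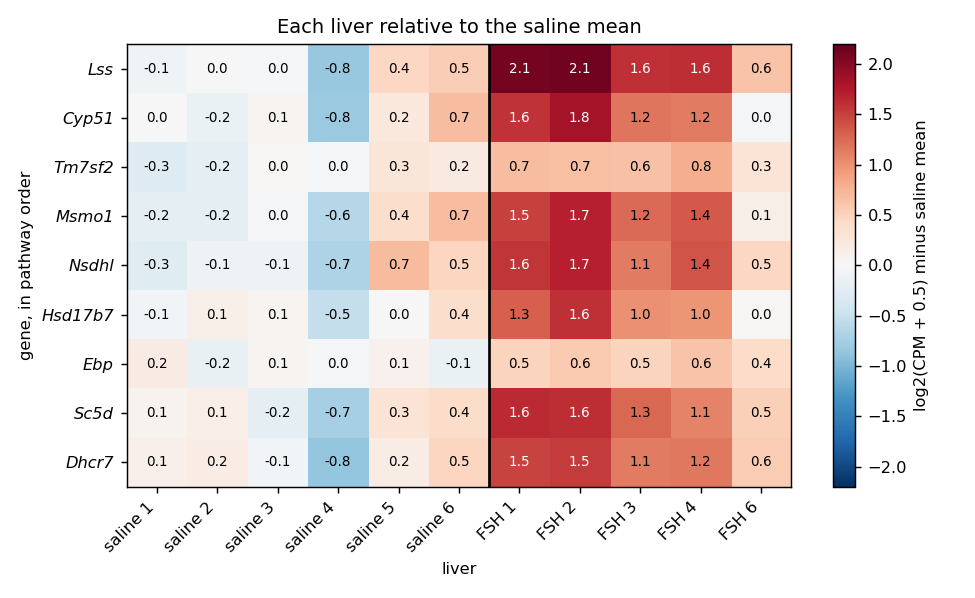
Log2(CPM + 0.5) of each enzyme (rows, in pathway order) in each liver (columns) after the gene's saline mean was subtracted; red is above and blue below the saline mean, and the black line separates the groups. Saline mouse 4 is blue in most rows, FSH mouse 6 is pale, and the rows of Tm7sf2 and Ebp are paler than the other 7.

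The livers differed in the level of the whole pathway within each group. Summed over the 9 enzymes, the FSH livers had 3077, 3224, 2507, 2499.6 and 1595 CPM (mice 1, 2, 3, 4 and 6) and the saline livers 1229, 1199, 1185, 895, 1466 and 1554 CPM (mice 1 to 6). The sum in FSH mouse 6 was just above that in saline mouse 6. FSH mouse 6 was the lowest FSH liver for 9 of 9 enzymes, while it was the lowest FSH liver for 34.4% of all genes tested. Among the saline livers, mouse 4 was the lowest for 7 of the 9 enzymes, against 24.2% of all genes tested, and mouse 6 was the highest for 6, against 22.2% of all genes tested. FSH mouse 2 was the highest FSH liver for 6 of 9 enzymes, against 33.5% of all genes tested. The exceptions in saline mouse 4 were Tm7sf2 and Ebp. The same mice were lowest upstream of squalene: for 10 of the 11 mevalonate to squalene enzymes FSH mouse 6 was the lowest FSH liver, and for 10 of 11 saline mouse 4 was the lowest saline liver. Without FSH mouse 6, 7 of the 9 enzymes passed both thresholds in place of 6.

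The members did not all change by the same amount. The log2 ratio between each pair of enzymes was computed in every liver and compared between the groups by the exact two-sided permutation test, with adjustment over the 36 pairs. Lss rose more than Hsd17b7, with a ratio 0.63 higher on the log2 scale in FSH livers than in saline livers, and more than Cyp51 by 0.47, Msmo1 by 0.43 and Nsdhl by 0.36 (exact p = 0.00433 for each but Cyp51, which had 0.00216; adjusted p = 0.0312 for all). For these 4 pairs the ratios of the groups did not overlap. Lss also rose more than Tm7sf2 by 1.00 (exact p = 0.00433, adjusted p = 0.0312), here with overlapping ratios. No other pair passed, and the largest difference of all, 1.10 between Lss and Ebp, had an adjusted p of 0.0584. Of the 36 pairs, 5 thus passed. Without 1 mouse 0 pairs passed, except without FSH mouse 6 (15 pairs) or saline mouse 5 (6 pairs), but fewer splits raise the smallest p-value that can be reached, so these counts do not show whether the differences rest on single mice. The number of pairs without overlap was 4 to 11 when 1 mouse was left out, and the largest difference between pairs was 0.94 to 1.32 on the log2 scale.

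**Figure D3:**
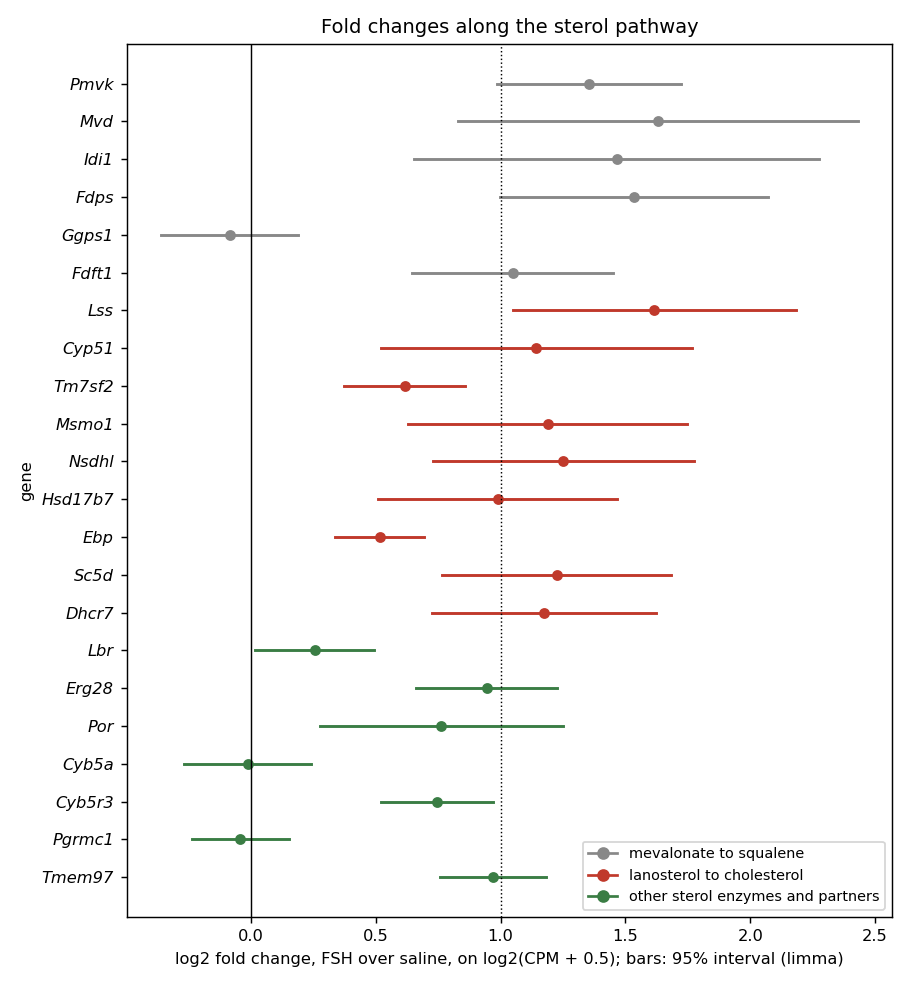
Log2 fold change of FSH over saline on the log2(CPM + 0.5) scale (x axis) for genes from mevalonate to squalene (gray), the 9 enzymes from lanosterol to cholesterol (red) and other sterol enzymes and partners (green), not all genes of the gray and green lists being drawn. Points are limma estimates, bars are 95% intervals, and the dotted line marks 2-fold. All 9 red intervals lie above 0, with those of Tm7sf2 and Ebp left of the dotted line.

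Levels were set side by side per length, as CPM per kilobase of the principal protein-coding transcript in GENCODE M21. In saline livers Ebp was the most abundant with 144 ± 13.6 CPM per kilobase (SD, n = 6), followed by Tm7sf2 with 121 ± 18.0 and Sc5d with 84.1 ± 21.3. Msmo1, Cyp51, Dhcr7 and Nsdhl had between 45.8 and 22.8, and Lss (4.76 to 12.6) and Hsd17b7 (5.10 to 9.66) had the least, with ranges that overlapped. The saline ranges of neighbors in this order overlapped except those of Nsdhl and Lss, and the ranges of Ebp and Sc5d were separate. In FSH livers Ebp (205 ± 12.1), Sc5d (198 ± 57.2) and Tm7sf2 (185 ± 22.2, SD, n = 5) had overlapping ranges, while Lss (28.3 ± 9.93) and Hsd17b7 (15.6 ± 5.57) remained the lowest 2. The neighbors Cyp51, Dhcr7 and Nsdhl overlapped in both groups. With the length of all annotated exons in place of the principal transcript, Ebp stayed first and Tm7sf2 ranked 3 in saline livers, and Lss was last. In FSH livers this length put Sc5d first, followed by Ebp, Cyp51 and Tm7sf2, with Lss again last.

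**Figure D4:**
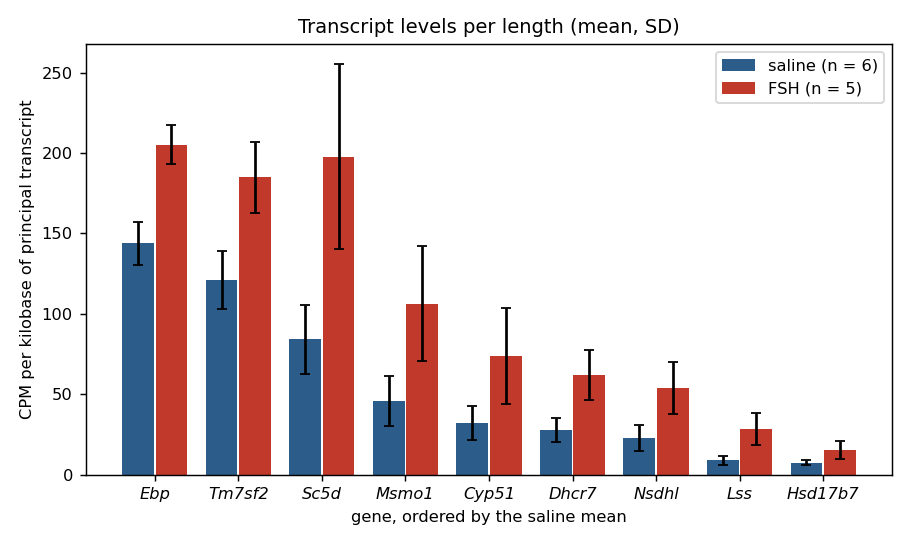
Mean CPM per kilobase of principal transcript (y axis, linear from 0) of the 9 enzymes, ordered by the saline mean, in saline (blue, n = 6) and FSH (red, n = 5) livers; error bars are SD. Ebp, Tm7sf2 and Sc5d lead in both groups, and Lss and Hsd17b7 are the lowest.

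Mice of one group that were high for one enzyme were mostly high for the others. After each group's mean was subtracted, Pearson's r over the 11 livers between 2 enzymes had a median of 0.88 over the 36 pairs, and these values are a description, since all points share their libraries. Among the 7 enzymes other than Tm7sf2 and Ebp, the lowest of 21 values was 0.82 and the highest was 0.97, between Lss and Cyp51. Tm7sf2 followed these 7 less closely, with r from 0.43 to 0.78. Ebp had r from 0.09 to 0.22 with the other 8 enzymes. The values were lower without the lowest mouse of each group: without FSH mouse 6 and saline mouse 4 the median r was 0.70, and the 21 values of the 7 enzymes were 0.51 to 0.92 over 9 livers. Over these 9 livers the lowest value was -0.44, between Ebp and Dhcr7.

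**Figure D5:**
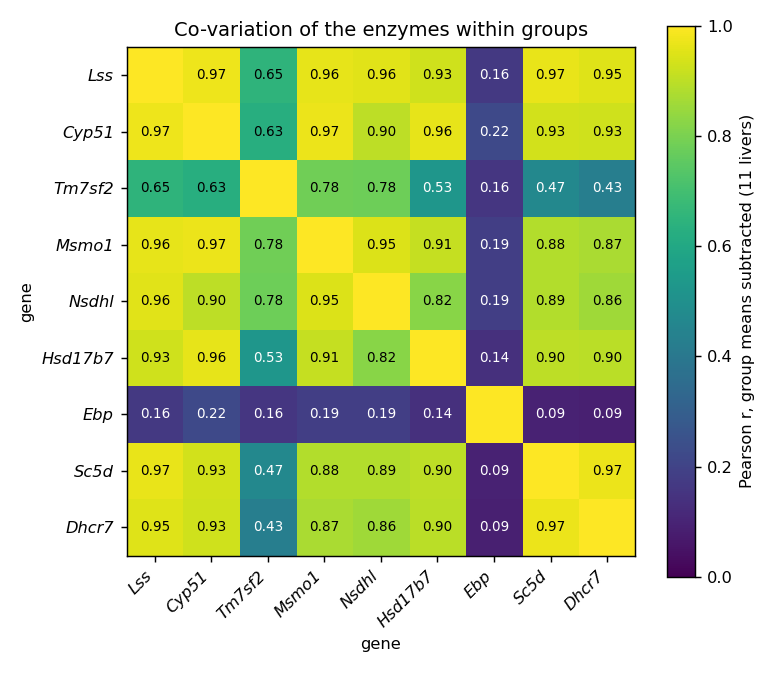
Pearson's r between each pair of the 9 enzymes over 11 livers, after the mean of each group was subtracted from log2(CPM + 0.5). Yellow fields are close to 1. The row and column of Ebp are dark (0.09 to 0.22) and those of Tm7sf2 intermediate.

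Of the other genes tested, the 10 whose variation within groups was most like the mean profile of the 9 enzymes were ranked by the same r. They were Acat2 (0.97), Idi1 (0.97), Fdft1 (0.97), Rdh11 (0.97), Hmgcs1 (0.96), Secisbp2l (0.96), Stard4 (0.95), Erg28 (0.94), Rrp1b (0.94) and Cklf (0.94). Spearman's rho of these 10 genes was 0.83 to 0.96, and their r without FSH mouse 6 and saline mouse 4 was 0.68 to 0.89. Acat2, Hmgcs1, Idi1 and Fdft1 encode enzymes upstream of lanosterol, Stard4 a sterol carrier, and Erg28 a scaffold of the sterol demethylation complex. Rdh11 encodes a retinol dehydrogenase. Cklf was not different between the groups (log2 fold change -0.12, adjusted p = 0.809 in limma) and was barely expressed, at 0.735 CPM. Ranking by Spearman's rho instead kept 1 of the 10 genes, and ranking without subtraction of the group means kept 5.

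Most enzymes of the earlier stretch, from acetyl-CoA to squalene epoxide, were also higher with FSH. Of 11 genes, all tested, 9 were higher at an adjusted p under 0.05 and 7 of them passed both thresholds. The shares over all genes tested were 6.19% and 0.887%. The median over the 11 was 1.30 on the log2 scale. Mvd (1.63) encodes the decarboxylase that ends the mevalonate steps, Fdps (1.53) the synthase of farnesyl diphosphate and Idi1 (1.46) the isomerase between them. Fdft1 (1.05) encodes squalene synthase. Ggps1, which leads off to geranylgeranyl diphosphate and not to sterols, had a log2 fold change of -0.08 (95% interval -0.36 to 0.19), and Hmgcs1 had 0.99 (adjusted p = 0.0925 in limma). These were the 2 that did not pass.

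Lbr acts between lanosterol and cholesterol and did not pass the adjusted p. It encodes a protein of the nuclear envelope that catalyzes the same reduction as the product of Tm7sf2, and per kilobase it was far less abundant, 3.18 ± 0.36 CPM in saline livers against 121 ± 18.0 for Tm7sf2. The log2 fold change of Lbr was 0.25 (95% interval 0.02 to 0.49, adjusted p = 0.169 in limma).

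Of the 11 other sterol enzymes and partners, Lbr included, 4 were higher at an adjusted p under 0.05, 0 were lower and 0 passed both thresholds. Over all genes tested, 6.19% were higher and 4.41% lower, and 1.83% passed both thresholds. The 4 were Erg28 (0.94), Tmem97, which encodes a sterol-binding membrane protein (0.97, adjusted p = 3.01e-05 in limma), Cyb5r3, the reductase that feeds electrons to cytochrome b5 (0.75), and Por, which feeds electrons to cytochrome P450 enzymes such as the product of Cyp51 (0.76, adjusted p = 0.0457 in limma). Erg28, Tmem97 and Cyb5r3 did not overlap between the groups, as was the case with FSH livers higher for 3.95% of all genes tested. Cyb5a (-0.01) and Pgrmc1 (-0.04) had log2 fold changes close to 0.

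Among 13 genes of sterol sensing and LDL uptake, 5 were higher and 2 lower at an adjusted p under 0.05. Of these, 2 of the higher and 1 of the lower passed both thresholds, among them Srebf1 (1.09) and Insig2 (-1.44). Over all genes tested, 6.19% were higher and 4.41% lower at the adjusted p, and 0.887% and 0.942% passed both thresholds. Srebf2, which encodes SREBP-2, averaged 51.1 ± 8.92 CPM in the 5 FSH livers and 53.0 ± 11.7 CPM in the 6 saline livers (± SD), which is -0.04 on the log2 scale (95% interval -0.37 to 0.29). Insig1, itself a target of SREBP, had 0.58 (adjusted p = 0.109 in limma), and FSH mouse 6 (308 CPM) and saline mouse 4 (192 CPM) were the lowest livers of their groups. Insig2, whose main liver transcript is known to rise with fasting, had 106 to 174 CPM in the FSH livers and 278 to 405 CPM in the saline livers, without overlap (adjusted p = 2.07e-05 in limma).

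Clock genes and cell type markers were read in the same livers. The clock gene Dbp was at 42.6 to 121 CPM with FSH and at 3.40 to 4.95 CPM with saline, with FSH mouse 6 the lowest FSH liver, and the clock gene Arntl was at 2.06 to 5.08 CPM against 13.2 to 22.8 CPM. Sterol synthesis in liver is known to follow the time of day and feeding, and the part of both in the rise of the 9 enzymes was not tested. Hepatocyte markers (Alb, Apoa1, Ttr, Cps1 and Serpina1a; Tf was not matched by name) summed to 91822 to 112369 CPM with FSH and 84786 to 114110 CPM with saline, and 0 of 5 passed the adjusted p. Over 10 lists of markers, 39 genes were tested, and 2 were higher and 2 lower at an adjusted p under 0.05, a share near the 10.6% of all genes tested. The 2 lower ones were Cd68 of the 6 macrophage markers (summed 69.4 to 186 CPM with FSH, 114 to 223 CPM with saline) and Lyve1 of the 6 endothelial markers (124 to 187 CPM against 149.7 to 175 CPM). The 2 higher ones were Krt7 of the 5 cholangiocyte markers (47.6 to 69.4 CPM against 38.3 to 55.7 CPM) and Star of the adrenal cortex markers, which summed to 0.904 to 1.23 CPM with FSH and 0.35 to 0.913 CPM with saline with Cyp11a1 and Cyp11b1 at 0. Stellate cell markers summed to 70.7 to 148 CPM with FSH and 97.4 to 156 CPM with saline, and erythroid markers to 464 to 790.0 CPM and 425 to 1009 CPM. Adipocyte markers summed to at most 7.38 CPM with Lep at 0, T and B cell markers to at most 9.72 CPM, and pancreatic acinar markers to at most 0.175 CPM with Prss2 and Pnlip at 0. The part of these cells in the result was not tested.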

How the data were processed

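Livers of 5 FSH-treated and 6 saline-treated OVX mice on HFD were sequenced from NEBNext Ultra libraries as paired 100-bp reads. The labels mention digestion of the liver with papain before RNA extraction. The authors deposited CPM values of 36788 genes without a filter or scaling between libraries. The submitters' processing notes name FastQC 0.11.2, cutadapt, Trim Galore 0.3.3, STAR, RSEM and the build mm10. The annotation and strand setting are not given in the sources used here, so overlapping and antisense genes could share reads. Identifiers without their version were matched to symbols of GENCODE M21 (GRCm38), which named 35555 of them.

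All values were whole multiples of 1 read (100% within 0.1 read). The 12733 genes that averaged 0.5 CPM or more entered limma 3.58.1 on the log2(CPM + 0.5) scale (R 4.3.3, eBayes with an intensity trend, Benjamini-Hochberg adjustment). Exact permutation tests counted splits with an absolute difference of means at least as large as that observed. The libraries are numbered as separate mice, and p-values test the difference between the groups against the spread between mice. The fit was tested on simulated reads in which 200 genes changed by 1.5 on the log2 scale. All genes had the same dispersion of 0.0307, a measure of the spread between libraries. Of the changed genes 100% were recovered, and 0% of the calls were false. Smaller changes and more variable genes were not simulated. edgeR 4.0.16, DESeq2 1.42.0 and voom were run on the recovered reads as alternatives, besides other pseudocounts, filters, scalings and weights. No 2 libraries of a group were as close as sampling noise (lowest mean chi-square per gene 11.4).

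The members, lists and motifs were chosen with earlier results of these data known. The motif shares among promoters of tested genes were added after the values were seen. The genes named are the 9 enzymes, members of the other lists past both thresholds with Lbr, Srebf1, Srebf2, Insig1 and Insig2, the 10 genes most like the enzymes, and Dbp and Arntl. Genes named beside these (Ggps1, Tmem97, Cyb5r3, Por, Cyb5a, Pgrmc1, Abcg5, Abcg8, Soat2, Vps51 and single markers) were chosen after their values were seen. Some genes of the lists are counted but not reported here by name.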

Additional observations from a re-analysis of the deposited data

How the results depend on the processing

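All 9 enzymes were higher with FSH in each of the 23 alternative fits, and 197 of the 207 values stayed on the same side of both thresholds. Cyp51 lost its call in 4 fits that each left out 1 mouse, and Hsd17b7 gained one in 6 fits, among them array weights (1.02), edgeR (1.03) and DESeq2 (1.03). The number of enzymes past both thresholds was 6 or 7 in the fits with all mice, 5 to 7 without 1 mouse and 8 with a 1.5-fold threshold, and the number past the adjusted p was 9 with all mice and 8 to 9 without 1 mouse. Genes past both thresholds rose from 233 to 707 with the 1.5-fold threshold, were 311 with edgeR and 198 to 273 without 1 mouse. Their share was 1.03% without a filter, where more genes were tested, against 1.83%. Genes past the adjusted p alone were 1350 (10.6%) in the main fit. They were 804 (6.31%) without FSH mouse 1, 1659 (13%) without FSH mouse 6 and 1892 (14.9%) with array weights. Without a filter their share was 4.92%. The mouse number as a replicate block gave 6 enzymes and 251 genes past both thresholds, and left saline mouse 5 without a partner. The labels do not say whether equal numbers pair the mice. Deviations of same-numbered livers correlated at -0.07 to 0.36, and 1 of 5 FSH livers was closest to its own number. So few pairs cannot decide it. Pairs of enzymes with unequal change were 5 with all mice and 0 to 15 without 1 mouse, with fewer splits to draw on. Of the 10 genes most like the enzymes, 1 was shared with Spearman's rho and 5 without subtraction of group means; the cause was not tested. TMM moved the median of all genes by -0.03 on the log2 scale. Depth was not a limit for the enzymes, which had at least 292 reads per library.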

Other observations

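Of 13 genes for the esterification, conversion and exit of cholesterol, 12 were tested (Ch25h was too low), and 3 were higher and 0 lower at an adjusted p under 0.05, against 6.19% higher and 4.41% lower over all genes tested. Of the 3, 1 (Cyp7a1) passed both thresholds, as did 0.887% of all genes tested with higher levels in the FSH group. The median over the 12 was -0.02 on the log2 scale. The 3 were Abcg5 and Abcg8, the partners in the transporter that moves sterols into bile, and Cyp7a1, the first enzyme of bile acid synthesis. Abcg5 averaged 115 ± 25.7 CPM in the 5 FSH livers and 66.1 ± 4.22 CPM in the 6 saline livers (± SD), which is 0.77 on the log2 scale (adjusted p = 0.00155 in limma), and Abcg8 had 122 ± 32.6 CPM and 66.6 ± 11.5 CPM, which is 0.84 on the log2 scale (adjusted p = 0.00559 in limma). These 2 genes overlap on opposite strands, and the strand setting of the counting is not given. The groups did not overlap for either gene or for Cyp7a1 (67.5 to 132 CPM against 28.0 to 66.9 CPM), which rose by 1.06 on the log2 scale (adjusted p = 0.00884 in limma). Such separation with FSH livers higher was found for 3.95% of all genes tested. Soat2, which encodes the enzyme that esterifies cholesterol in hepatocytes, differed by 0.08 on the log2 scale and did not pass (adjusted p = 0.694 in limma).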
